A study of Homo sapiens with 6 samples.

Results

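The genes described here are aminoacyl-tRNA synthetases, the enzymes that join each amino acid to its transfer RNA, together with proteins that bind them or carry tRNA out of the nucleus. They were taken from a list of 30 symbols: 19 cytosolic enzymes, 7 mitochondrial enzymes, 3 scaffold proteins and 1 tRNA export factor. A gene was measured when a probe set of the array named that gene alone. This held for 25 of the 30, among 11963 genes in all, and all 25 lay above the level below which genes were not tested. FARSB, AIMP2 and EEF1E1 were not analysed here. MARS1 and QARS1 were not either, because the array annotation lists each of their probe sets with a microRNA gene as well.

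Cytosolic synthetases charge tRNA for the proteins made on cytosolic ribosomes, and a separate nuclear-encoded set does so for the few proteins made inside mitochondria. A few genes, GARS1 and KARS1 among them, supply both compartments. Several cytosolic enzymes sit with 3 non-catalytic scaffold proteins in a multisynthetase complex. When amino acids or protein folding in the endoplasmic reticulum (ER) run short, the transcription factor ATF4 is known to induce many cytosolic synthetase genes along with amino acid transporters and synthesis enzymes. IRE1alpha, encoded by ERN1, is a different ER stress sensor, which splices the XBP1 transcript.

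The cells were U87, a human glioblastoma line, sampled after 16 h of culture in medium with 10% serum, and RNA was measured on 6 Affymetrix arrays, 1 per sample. The IRE1dn group (3 arrays) carried a dominant negative transgene of IRE1alpha, and the labels name 1 clone for it, U87 IRE1.NCK DN. The ctrl group (3 arrays) carried the empty plasmid, and its labels speak of clones without assigning one to an array. The sources do not state whether replicates came from separate cultures. The p-values therefore reflect only how these 6 arrays vary, which may be technical, and clone and transgene cannot be told apart.

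Signals are linear intensities in scaled units, with array medians between 18.4 and 21.0, and precision is limited by the number of arrays. Correlations of log2 signals were 0.976 to 0.984 within the IRE1dn group, 0.939 to 0.954 within the ctrl group and 0.841 to 0.886 between groups. The ctrl arrays spread more, with the larger SD for 70.9% of genes. Of 7 markers listed for these cells, 6 lay above the filter level of 12.97 units on every array, NES (nestin) being the exception. Leukocyte, epithelial and endothelial markers (4, 3 and 3 genes) each summed to at most 20.6 units on any array. Of the neural markers MBP and MOG lay under the filter level on every array, SYT1 lay under it except on ctrl array 3 (43.4 units), and SNAP25 measured 110 to 282 units. ERN1 averaged 11.1 ± 1.58 units in IRE1dn cells and 12.3 ± 1.53 units in ctrl cells (SD, n = 3 each), under the filter level, and its probe set need not cover the transgene, so it does not check the labels. XBP1 fell to 123 ± 8.97 units in IRE1dn cells, against 232 ± 31.3 units in ctrl cells (SD, n = 3 each). On the log2 scale XBP1 changed by -0.90 (SE 0.18; limma adjusted p = 0.00448).

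A log2 change below is IRE1dn minus ctrl on the log2(signal + 1.75) scale, and a gene passed when limma's adjusted p over 7178 tested genes was under 0.05. By this rule 34.4% of all tested genes passed, 16.5% lower and 17.9% higher in IRE1dn cells. Of the 25 measured synthetases and partners, 8 fell (32%), 1 rose (4%) and 16 did not pass. Their median log2 change was -0.29, against 0.011 over all tested genes. The share that passed in either direction, 36%, was close to that of all genes. The 2 groups' arrays did not overlap for 12 of the 25 (48%), against 50.2% of all tested genes.

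Every cytosolic enzyme that passed was lower in IRE1dn cells. Of 16 measured, 6 fell, 0 rose and 10 did not pass, with a median log2 change of -0.46. The share that fell was 37.5%, against 16.5% of all tested genes. In either direction 34.4% of all tested genes passed, close to the cytosolic share. The 6 that fell charge arginine (RARS1), phenylalanine (FARSA), asparagine (NARS1), threonine (TARS1), serine (SARS1) and histidine (HARS1). RARS1, NARS1 and, among the mitochondrial enzymes, WARS2 kept their calls in every alternative that tested them, from other scalings to leaving out each array. Each has 1 probe set, so the alternatives on probe sets left their signals as they were. In bulk RNA of this kind, fewer expressing cells and less RNA per cell cannot be told apart.

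**Figure D1:**
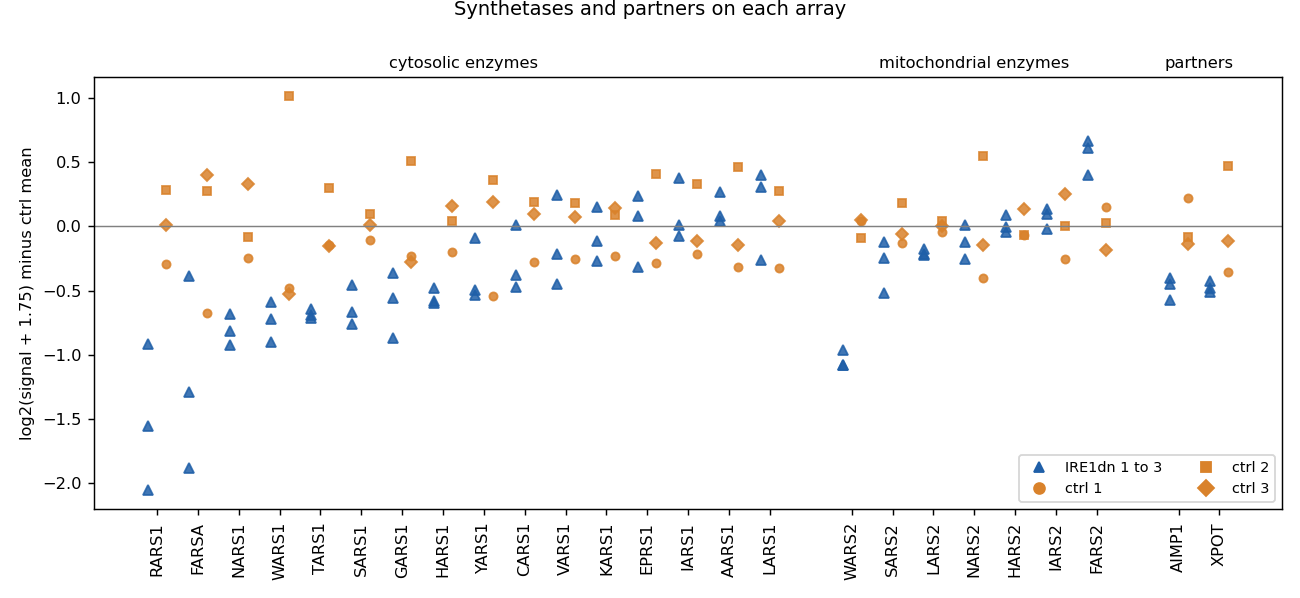
Log2(signal + 1.75) of each of the 25 measured genes on each array, minus that gene's mean over the ctrl arrays; triangles are IRE1dn arrays and circles, squares and diamonds are ctrl arrays 1, 2 and 3. The 3 triangles lie below all 3 ctrl points for 11 genes and above them for FARS2. Of all 7178 tested genes, 1739 had every IRE1dn array below every ctrl array and 1864 had every one above. Among the cytosolic enzymes the square of ctrl array 2 is the highest ctrl point for 12 of 16.

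RARS1, the arginyl enzyme and a member of the multisynthetase complex, had the largest change of the 25. Its signals were 469, 213 and 300.5 units on IRE1dn arrays 1, 2 and 3, against 722, 1079 and 890.4 units on the 3 ctrl arrays. Every IRE1dn array lay below every ctrl array, with IRE1dn array 1 the nearest. The means were 328 ± 131 units in IRE1dn cells and 897 ± 179 units in ctrl cells (SD, n = 3 each), which is 2.84-fold lower in IRE1dn cells on the log2(signal + 1.75) scale (log2 change -1.51, SE 0.27; limma adjusted p = 0.00328). Over the alternatives the log2 change lay between -1.85 and -1.23.

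NARS1, the asparaginyl enzyme, measured 391, 462 and 421 units in IRE1dn cells and 623, 701 and 933 units in ctrl cells. The groups did not overlap, and ctrl array 3 was the highest. Its log2 change was -0.81 (SE 0.18; limma adjusted p = 0.00843), and it stayed between -0.93 and -0.64 over the alternatives.

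The threonyl enzyme TARS1 was even across IRE1dn arrays, at 381, 364 and 369.6 units, against 540.4, 733 and 535 units on the ctrl arrays. SARS1, which charges serine and also loads serine onto the selenocysteine tRNA, measured 441, 469.9 and 544 units in IRE1dn cells, against 693, 801 and 754 units in ctrl cells. Neither gene overlapped between groups. TARS1 changed by -0.68 (SE 0.17; limma adjusted p = 0.0129) and SARS1 by -0.63 (SE 0.15; limma adjusted p = 0.0114). Both calls ended without IRE1dn array 2, each with limma adjusted p = 0.0590, while the changes themselves were -0.67 and -0.61.

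HARS1, the histidyl enzyme, gave 204, 202 and 219 units on the IRE1dn arrays, against 266, 315 and 343 units on the ctrl arrays, with no overlap. Its log2 change of -0.55 (SE 0.17; limma adjusted p = 0.0283) no longer passed without any single array other than ctrl array 1 (limma adjusted p of 0.0574 to 0.116).

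FARSA encodes the catalytic subunit of the cytosolic phenylalanyl enzyme, whose other subunit is FARSB. It measured 128, 68.2 and 44.5 units in IRE1dn cells, against 105, 205 and 223 units in ctrl cells. Here the groups overlapped: IRE1dn array 1 was higher than ctrl array 1. The log2 change was -1.19 (SE 0.39; limma adjusted p = 0.0402). The call ended without IRE1dn array 2 or 3 or ctrl array 2 or 3 (limma adjusted p of 0.0852 to 0.159), without the filter (0.0662) and without the intensity trend (0.0542). The size was -0.84 without IRE1dn array 3. A second FARSA probe set differed by -0.72.

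Among the 10 cytosolic enzymes that did not pass, GARS1 and WARS1 had values on all IRE1dn arrays below all ctrl arrays. GARS1, the glycyl enzyme of both compartments, measured 483, 599 and 686 units in IRE1dn cells, against 751, 1253 and 726 units in ctrl cells. The gap was narrow except to ctrl array 2, and the log2 change was -0.59 (SE 0.23; limma adjusted p = 0.0708); it passed without ctrl array 3 (-0.73; limma adjusted p = 0.0371) and with array weights (0.0204), and was -0.34 without ctrl array 2.

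WARS1, the tryptophanyl enzyme that interferon gamma is known to induce, measured 153, 135 and 169 units in IRE1dn cells, against 181, 514 and 176 units in ctrl cells. A single array, ctrl array 2, stood far above the rest. The log2 change was -0.74 (SE 0.36; limma adjusted p = 0.143) and -0.23 without that array, and with array weights it passed at -1.06 (limma adjusted p = 0.0180). A second WARS1 probe set differed by -0.70 and had the same high array. Of 13 tested interferon response genes 3 fell and 0 rose (median log2 change -0.71). That is 23.1% lower, against 16.5% of all tested genes, of which 34.4% passed in either direction. The 3 were IFI44L (-2.91), OASL (-1.86) and IFI35 (-1.16), with limma adjusted p of 0.00939 or lower. On ctrl array 2, where WARS1 was highest, the mean log2 level of these 13 genes around the ctrl mean was -0.45. The part of interferon genes in the WARS1 values was not tested.

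YARS1 and CARS1, which charge tyrosine and cysteine, had lower means in IRE1dn cells but overlapped between groups. YARS1 measured 325, 335 and 444 units in IRE1dn cells, against 323, 606 and 539 units in ctrl cells (-0.37, SE 0.24; limma adjusted p = 0.260). Ctrl array 1 lay just below all IRE1dn arrays and the other 2 ctrl arrays above them all, and without ctrl array 1 YARS1 passed at -0.65 (limma adjusted p = 0.0281). CARS1 measured 404, 429 and 563 units in IRE1dn cells, against 461, 638 and 597 units in ctrl cells (-0.28, SE 0.19; limma adjusted p = 0.276).

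The remaining 6 cytosolic enzymes had log2 changes between -0.14 and 0.15, with limma adjusted p of 0.658 to 0.999. IARS1, the isoleucyl enzyme, measured 1477 ± 254 units in IRE1dn cells and 1382 ± 289 units in ctrl cells (SD, n = 3 each), and LARS1, the leucyl enzyme that also senses leucine for the growth regulator mTORC1, measured 188 ± 43.1 units in IRE1dn cells and 168 ± 34.7 units in ctrl cells (SD, n = 3 each). Differences of this size were smaller than the SDs within groups. AARS1 (alanine) had a log2 change of 0.13 (SE 0.22) and KARS1 (lysine, both compartments) of -0.081 (SE 0.16). EPRS1, a single protein that charges glutamate and proline, had 0.000348 (SE 0.23), and its 3 probe sets ranged from -0.56 to that value. VARS1, the valyl enzyme that binds elongation factor eEF1, had a log2 change of -0.14 (SE 0.23) in the probe set used and of 0.81 in a second one. With the mean of both probe sets VARS1 stood at 0.33, so its direction depended on the probe set.

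Over the whole list, 9 of the 25 genes had several probe sets, which shared a direction for 5 genes (CARS1, FARSA, KARS1, WARS1 and AIMP1) and split for the other 4 (EPRS1, VARS1, FARS2 and LARS2). The 16 other genes, RARS1, NARS1, TARS1, SARS1, HARS1 and WARS2 among them, rest on 1 probe set each.

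By structure, synthetases fall into 2 unrelated families, class I and class II. Of the 8 cytosolic class II enzymes measured 5 fell (median -0.61), and RARS1 was the 1 of 7 class I enzymes that fell (median -0.28); EPRS1 holds a domain of each class and was left aside. Of the 5 measured enzymes of the multisynthetase complex (EPRS1, IARS1, KARS1, LARS1, RARS1) RARS1 alone fell, against 5 of the 11 cytosolic enzymes outside it. The medians were 0.000348 inside the complex and -0.59 outside it. The shares that fell were 62.5% of class II, 14.3% of class I, 20% inside the complex and 45.5% outside it. Over all tested genes 16.5% fell, so class I and the complex lay near that share. Neither split was tested.

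The mitochondrial enzymes did not share a direction. Of 7 measured, WARS2 fell, FARS2 rose and 5 did not pass, so 28.6% passed, against 34.4% of all tested genes. The 7 enzymes had a median log2 change of -0.12. That median was -0.021 without ctrl array 2, -0.057 without IRE1dn array 3, -0.19 without ctrl array 3 and -0.23 without ctrl array 1. WARS2, the mitochondrial tryptophanyl enzyme, measured 34.6, 37.6 and 34.6 units in IRE1dn cells, against 77.2, 70.4 and 77.6 units in ctrl cells. Both groups were tight and far apart, 2.06-fold lower in IRE1dn cells on the log2(signal + 1.75) scale (log2 change -1.04, SE 0.19; limma adjusted p = 0.00343).

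FARS2, the single-subunit mitochondrial phenylalanyl enzyme, was the 1 member that rose. Its signals were 315, 305 and 263 units in IRE1dn cells, against 221, 203 and 175 units in ctrl cells, without overlap. The log2 change was 0.56 (SE 0.17; limma adjusted p = 0.0303). The call ended without any single IRE1dn array or ctrl array 3 (limma adjusted p of 0.0606 to 0.126), with equal array medians (0.0553) and with the mean of its 3 probe sets (0.25; limma adjusted p = 0.408). Of the other 2 probe sets, one differed by 0.51 and one, below 6 units on every array, by -0.31.

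LARS2, the leucyl enzyme, measured 113, 116 and 112 units in IRE1dn cells, against 127, 136 and 132 units in ctrl cells; the arrays did not overlap, but the log2 change of -0.21 did not pass (SE 0.16; limma adjusted p = 0.355), and its second probe set differed by 0.19. HARS2, IARS2, NARS2 and SARS2, the histidyl, isoleucyl, asparaginyl and seryl enzymes, overlapped between groups, with log2 changes of 0.012, 0.070, -0.12 and -0.29 (limma adjusted p of 0.368 to 0.969). SARS2 was dim, at 22.7 ± 3.36 units in IRE1dn cells and 28.2 ± 3.48 units in ctrl cells (SD, n = 3 each).

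**Figure D2:**
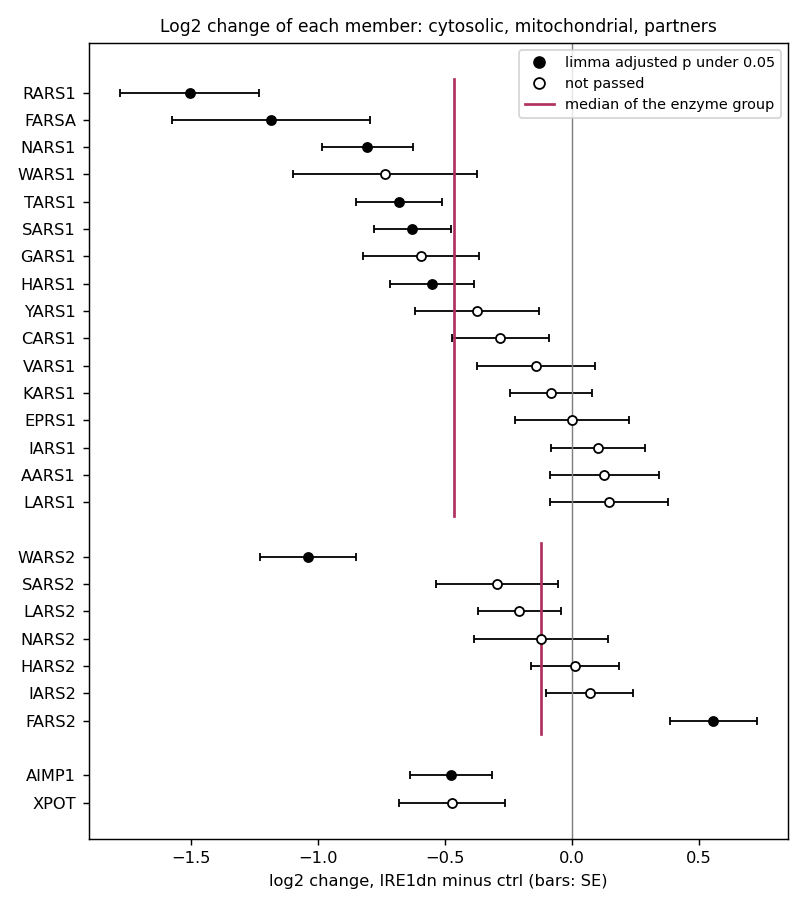
Log2 change (IRE1dn minus ctrl) with its SE for each measured gene, grouped into cytosolic enzymes, mitochondrial enzymes and partners; filled points passed limma's adjusted p threshold of 0.05 and the vertical bars mark the medians of the enzyme groups. All 6 filled cytosolic points lie left of 0, while of the 2 filled mitochondrial points WARS2 lies left and FARS2 right.

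Set against each other, the cytosolic median lay below the mitochondrial one by a difference of -0.34 on the log2 scale. The difference was -0.19 without ctrl array 2 and -0.18 without ctrl array 3, and ran from -0.50 to -0.18 over all alternatives. The same difference had an SD of 0.23 among the 3 ctrl arrays, and no test was made, because the genes were chosen with results of these data known. It also depends on which mitochondrial enzymes are counted. Of 12 further synthetases outside the list, 2 were tested, and both are mitochondrial and fell: the tyrosyl enzyme YARS2 (-1.42, SE 0.26; limma adjusted p = 0.00341) and the cysteinyl enzyme CARS2 (-1.06, SE 0.16; limma adjusted p = 0.00141). With them 3 of 9 mitochondrial enzymes fell, beside 37.5% of the cytosolic enzymes and 16.5% of all tested genes. The difference was then -0.26, an alternative added after seeing the data.

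For 7 amino acids both the cytosolic and the mitochondrial enzyme were measured. The cytosolic enzyme had the lower log2 change in 4 of the 7 pairs, those for phenylalanine (by -1.74), asparagine (-0.68), histidine (-0.56) and serine (-0.33). For isoleucine, leucine and tryptophan the difference ran the other way, at 0.032, 0.35 and 0.30. Taken array by array around the ctrl means, the difference between the 2 enzymes was lower on every IRE1dn array than on every ctrl array for phenylalanine, histidine and serine, and overlapped for the other 4. The nearest IRE1dn and ctrl values were -1.05 and -0.83 for phenylalanine, -0.47 and -0.14 for histidine, and -0.15 and -0.087 for serine. Among single genes 50.2% of all tested genes did not overlap, and no such share was computed for pairs.

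**Figure D3:**
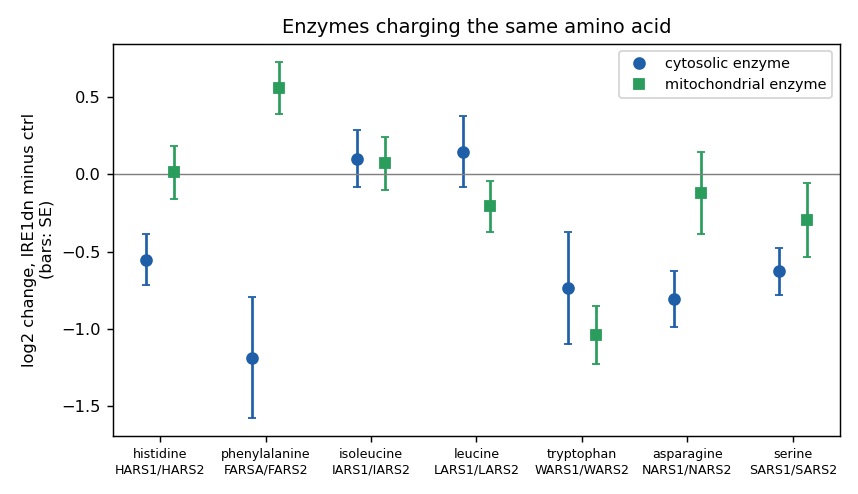
Log2 change (IRE1dn minus ctrl) with its SE for the cytosolic (circle) and mitochondrial (square) enzyme of each of 7 amino acids. The widest gap is that of phenylalanine, where FARSA stood at -1.19 and FARS2 at 0.56, and the points of isoleucine nearly coincide.

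The histidine pair is shown in sequence, because HARS1 and HARS2 are neighbours that start back to back. In RefSeq's GRCh38.p14 promoter table their starts lie 85 bases apart on chromosome 5, so the 300-base promoter windows of the 2 genes share 184 bases. The stretch below is the HARS2 window on the plus strand, chr5:140691205-140691504, and capitals mark the 84 bases between the HARS1 start (minus strand) and the HARS2 start (plus strand).
HARS1 and HARS2: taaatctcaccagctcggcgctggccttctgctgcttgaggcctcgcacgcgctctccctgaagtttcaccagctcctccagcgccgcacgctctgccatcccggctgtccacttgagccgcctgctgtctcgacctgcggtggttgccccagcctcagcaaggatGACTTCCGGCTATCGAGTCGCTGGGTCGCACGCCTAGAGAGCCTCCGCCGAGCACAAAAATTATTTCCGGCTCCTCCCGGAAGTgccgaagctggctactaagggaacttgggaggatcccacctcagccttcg
The log2 change was -0.55 (SE 0.17) for HARS1, which passed, and 0.012 (SE 0.17) for HARS2, which did not. HARS2 measured 118, 107 and 109.7 units in IRE1dn cells, against 105, 105 and 121 units in ctrl cells, so its groups overlapped.

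Both measured partners had lower means in IRE1dn cells, and AIMP1 passed. AIMP1, a scaffold protein of the multisynthetase complex that is also cut into a secreted cytokine, measured 335, 323 and 296 units in IRE1dn cells, against 516, 417 and 402 units in ctrl cells, without overlap. Its log2 change of -0.48 (SE 0.16; limma adjusted p = 0.0467) was the nearest to the threshold of the 9 that passed, and the call ended without any single array other than ctrl array 3 (limma adjusted p of 0.0587 to 0.156), without the filter (0.0580), without the intensity trend (0.0705) and with its other probe set (0.0996). XPOT, the exportin that carries tRNA out of the nucleus, measured 508, 488 and 477 units in IRE1dn cells, against 533, 946 and 629.6 units in ctrl cells. Its arrays did not overlap, but the log2 change of -0.47 (SE 0.21) did not pass (limma adjusted p = 0.104). XPOT passed without ctrl array 1 (-0.65; limma adjusted p = 0.0336) and with array weights (0.0214), and stood at -0.24 without ctrl array 2.

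The ctrl arrays themselves differed in these genes. Of the 16 cytosolic enzymes, 12 were highest on ctrl array 2 among the ctrl arrays and 13 were lowest on ctrl array 1. Around the ctrl mean their mean log2 level was -0.46, -0.52 and -0.37 on the 3 IRE1dn arrays, against -0.30, 0.30 and 0.0068 on ctrl arrays 1, 2 and 3. The IRE1dn mean lay below the ctrl array 2 value for all 16 enzymes, below ctrl array 3 for 12 and below ctrl array 1 for 8; over all tested genes those shares were 50.1%, 48.8% and 45.9%. The median change was -0.65 without ctrl array 1 and -0.21 without ctrl array 2. The number of cytosolic enzymes that fell was 7 without ctrl array 1, 4 without ctrl array 2 and 2 without IRE1dn array 2. Over all tested genes those 3 fits gave 2300, 2294 and 1440 genes past the threshold in either direction, against 2468 with all arrays. On ctrl arrays 1, 2 and 3 the mean levels of the mitochondrial enzymes were -0.10, 0.092 and 0.0074, and those of all tested genes -0.041, 0.022 and 0.019, in the same order as the cytosolic enzymes but closer together.

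ATF4 target genes had this order of ctrl arrays as well. Over 25 tested genes of the ATF4 amino acid response, the mean log2 level around the ctrl mean was -0.48, -0.50 and -0.55 on the IRE1dn arrays, against -0.60, 0.54 and 0.057 on ctrl arrays 1, 2 and 3. Of these 25 genes 7 fell (28%) and 4 rose (16%), against 16.5% and 17.9% of all tested genes. The median log2 change of the 25 was -0.45, and it was -0.84 without ctrl array 1 and -0.071 without ctrl array 2. The number that fell was 14 without ctrl array 1, 4 without ctrl array 2, IRE1dn array 1 or IRE1dn array 2, and 3 without IRE1dn array 3. The number that rose was 0 without any single IRE1dn array and 2 without ctrl array 1. Calls over all tested genes, in either direction, moved as well. They numbered 2468 with all arrays, 2300 without ctrl array 1 and 2294 without ctrl array 2. Without IRE1dn arrays 1, 2 and 3 in turn they numbered 1839, 1440 and 1500. Within the ATF4 list the largest falls were those of the stress transcription factor ATF3 (-2.79), DDIT3, which encodes CHOP (-1.81), the pseudokinase TRIB3 (-1.61) and the serine synthesis enzyme PSPH (-1.59). Limma adjusted p was 0.0455 or lower for the 4. DDIT3 and TRIB3 came close to ctrl array 1. DDIT3 measured 60.6 units on IRE1dn array 2 and 63.8 on ctrl array 1, and TRIB3 28.7 on IRE1dn array 3 and 33.2 on ctrl array 1. The 4 genes that rose were VLDLR (0.79), SLC7A1 (0.69), PYCR1 (0.65) and DDIT4 (0.52), with limma adjusted p of 0.0416 or lower. The ATF4 transcript measured 573, 602 and 652 units in IRE1dn cells, against 482, 871 and 769.7 units in ctrl cells, so it overlapped between groups (-0.17, SE 0.22; limma adjusted p = 0.564) and was lowest on ctrl array 1. The part of ATF4 in the synthetase values was not tested.

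**Figure D4:**
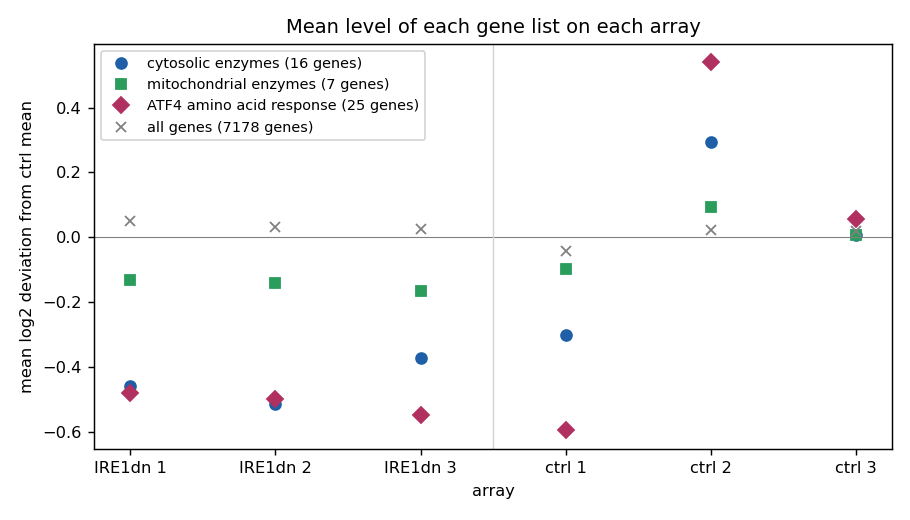
Mean log2 deviation from the ctrl mean on each array for the cytosolic enzymes (circles, 16 genes), the mitochondrial enzymes (squares, 7), the ATF4 amino acid response (diamonds, 25) and all tested genes (crosses, 7178). Among ctrl arrays all 4 sets lie lowest on ctrl array 1 and highest on ctrl array 2, from -0.60 to 0.54 for the ATF4 list and from -0.041 to 0.022 for all tested genes.

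Promoter windows were searched for the core of the ATF4 response element, since ATF4 is known to induce many cytosolic synthetase genes. RefSeq's promoter table (GRCh38.p14, 250 bases before to 50 after each start) held 22 of the 25 measured genes, all but LARS1, VARS1 and YARS1. The core TGATGNAA, on either strand, stood in 6 of 13 cytosolic enzymes with a window, in 0 of 7 mitochondrial enzymes and in 0 of the 2 partners, against 2.89% of all tested genes with a window. A match is a description of letters, not a shown binding site. The 6 stretches of 60 bases are printed along each gene's own strand with the core in capitals.
TARS1 (chr5:33440941-33441000, plus strand): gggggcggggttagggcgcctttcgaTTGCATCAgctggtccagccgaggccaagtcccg
NARS1 (chr18:57621789-57621848, minus strand): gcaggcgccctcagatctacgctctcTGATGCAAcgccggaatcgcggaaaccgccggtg
GARS1 (chr7:30594819-30594878, plus strand): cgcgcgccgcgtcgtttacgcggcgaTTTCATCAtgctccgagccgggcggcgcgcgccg
IARS1 (chr9:92293677-92293736, minus strand): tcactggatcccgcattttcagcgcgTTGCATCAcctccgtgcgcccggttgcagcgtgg
CARS1 (chr11:3057392-3057451, minus strand): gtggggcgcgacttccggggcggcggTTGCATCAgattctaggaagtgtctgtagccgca
AARS1 (chr16:70289660-70289719, minus strand): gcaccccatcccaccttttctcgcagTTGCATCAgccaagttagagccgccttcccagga
The core was present in 2 of the 6 cytosolic enzymes that fell, TARS1 and NARS1, and in 4 of the 7 others with a window, GARS1, IARS1, CARS1 and AARS1. RARS1, SARS1, HARS1 and FARSA fell with no such letters in their windows. IARS1 and AARS1 carried them with log2 changes of 0.10 and 0.13. ATF4 elements with other letters or outside the windows were not searched. The part of ATF4 in these changes was not tested. An XBP1 core, TGACGTGG on either strand, occurred in 1 of the 22 genes, CARS1, in another of its listed windows, against 1.34% of tested genes. The ER stress response element, searched on either strand, occurred in 0 of the 22, against 0.199% of tested genes.

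Other genes of tRNA use and translation elongation gave the following counts, beside 16.5% lower and 17.9% higher over all tested genes. Of 5 tested elongation factors 3 fell and 0 rose (median log2 change -0.50): the mitochondrial factors TSFM (-0.68) and TUFM (-0.58), and EEF1D (-0.50), a subunit of the exchange factor that binds the valyl enzyme. Limma adjusted p was 0.0476 or lower for these 3. EEF1A1, which delivers charged tRNA to the ribosome, measured 3398 ± 632 units in IRE1dn cells and 3119.8 ± 105 units in ctrl cells (SD, n = 3 each) and did not pass (0.11; limma adjusted p = 0.601). Of 9 tested genes of tRNA transport and processing 2 fell and 1 rose (median -0.26). The share that passed, 33.3%, was close to the 34.4% of all tested genes. POP4, a subunit of ribonuclease P, changed by -0.81 (limma adjusted p = 0.00728), the tRNA methyltransferase TRMT1 by -0.68 (0.0358) and the nuclear exportin XPO1 by 0.42 (0.0456).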

How the data were processed

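The authors deposited 1 table of signal intensities for 22277 probe sets on 6 arrays, and the submitters' processing notes name GCOS 1.2. How probes were summarised and whether background was removed is not given in the sources used here. Scaling was visible in the deposited intensities, each array's mean after trimming 2% at each end being 100.0 units, so a change shared by all transcripts would not be seen.

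Intensities were transformed to log2(signal + 1.75), the 20th percentile of all values as pseudocount, which shrinks the changes of dim genes. Gene symbols came from GEO's platform annotation, updated through gene identifiers to the RefSeq table of GRCh38.p14 (19052 of 19064 probe sets with 1 symbol matched; 1043 had several). The probe set with the highest mean represented each of 11963 genes, and the 7178 with a mean log2 signal above the 40th percentile (12.97 units) were tested with limma 3.58.1 in R 4.3.3 (two-sided, all 6 arrays in a fit without covariates, variance trend on intensity, Benjamini-Hochberg adjustment). The test was checked on simulated data with the means and spread of these 7178 genes (200 changed per run). It recovered 3.4% of genes changed by 0.5, 44.8% by 1, 87% by 2 and 99.4% by 4 on the log2 scale. Far fewer genes were changed in the simulation than passed in the data (34.4%). The adjustment is stricter when fewer genes change, so on that ground these shares may be too low for the data. The simulated noise was normal and independent between genes, with the same SD per gene in both groups. In the data the ctrl arrays had the larger SD for 70.9% of genes. What this difference does to the shares was not tested.

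Every measured member is named, and of other lists up to 4 changed genes with the largest changes. EEF1A1 and the 4 ATF4 response genes that rose were named after their values were seen. The members and lists were chosen with earlier results of these data known, so lists are described by counts and medians, with no set test. Alternatives changed the pseudocount, filter, scaling, probe set, variance model, array weights, replicate block and arrays.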

Additional observations from a re-analysis of the deposited data

How the results depend on the processing

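RARS1, NARS1 and WARS2 stayed past the threshold in every alternative that tested them. The alternatives on probe sets could not change the signals of these 3 genes, which have 1 probe set each. The 60th percentile filter left WARS2, NARS2 and SARS2 untested. Leaving out 1 array at a time gave 1440 to 2663 changed genes (2468 with all arrays; 1440 without IRE1dn array 2, 1500 without IRE1dn array 3), 3 to 10 changed synthetases and partners (9 with all), 3 to 9 lower ones (8 with all; 3 without IRE1dn array 2, 5 without IRE1dn array 3 or ctrl array 2) and 2 to 7 lower cytosolic enzymes (6 with all; 2 without IRE1dn array 2). Array weights gave the most changed members, 12. Deviations from group means correlated at r of -0.10, 0.061 and 0.025 between same-numbered arrays of the 2 groups. Between arrays of different numbers r ran from -0.12 to 0.075. Each mean is taken over the same 3 arrays, so these values cannot tell whether the replicate numbers pair arrays. With the replicate number as a block, 2276 genes and 7 members passed, 6 of them lower and 5 of those cytosolic. FARSA (limma adjusted p = 0.0581) and AIMP1 (0.0629) were the members that no longer passed with the block. Among single members, directions turned only in genes that had not passed. The mitochondrial median was 0.041 with the 60th percentile filter. The median of all genes, 0.011, was -0.0082 with that filter, -0.029 after quantile normalization, -0.060 with equal medians and -0.0064 without ctrl array 1. EPRS1 was -0.00012 with a pseudocount of 16, -0.016 after quantile normalization, -0.072 with equal medians and -0.22 as the mean of its probe sets. HARS2 was -0.0071 with array weights, -0.060 with equal medians and -0.043 under quantile normalization. IARS2 was -0.0027 with equal medians, AARS1 -0.012 and IARS1 -0.068 with array weights, and VARS1 0.33 as the mean of its probe sets. Leaving out 1 array gave ranges of -0.030 to 0.36 for AARS1, -0.14 to 0.20 for EPRS1, -0.034 to 0.27 for IARS1, -0.20 to 0.016 for KARS1, -0.013 to 0.35 for LARS1, -0.33 to 0.012 for VARS1, -0.027 to 0.078 for HARS2, -0.055 to 0.20 for IARS2 and -0.32 to 0.15 for NARS2. Apart from fewer arrays, the cause was not tested. Signal limits the dim genes: SARS2 lies nearest the filter level.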
